A study of Mus musculus with 9 samples.

Results

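The numbered F-box and Kelch families of ubiquitin ligase adaptors were followed through an RNA immunoprecipitation (RIP) of CELF2 from mouse cortex. They comprised the protein-coding genes whose symbol is *Fbxo*, *Fbxl*, *Fbxw* or *Klhl* followed by a number. The rule found 115 genes, of which 36 were *Fbxo*, 18 *Fbxl*, 24 *Fbxw* and 37 *Klhl*, among 21254 protein-coding genes with transcript rows. It used symbols only and no measured value. The study drew 9 libraries from the cytoplasmic fraction of cortices at postnatal day 0, all from mice heterozygous for the *Celf2* knockin allele that encodes CELF2 p.R493H (KI). The groups were CELF2-KI RIP, in which lysate was incubated for 3 hours with rabbit antibody to CELF2 (10 µg), IgG RIP, treated alike with normal rabbit IgG, and input, an aliquot of the lysate set aside before antibody was added, with 3 biological replicates each. Every group carried the KI allele, so a value describes RNA that came down with CELF2 in KI cortex, not an effect of the allele.

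F-box and Kelch proteins choose what a cullin-RING ubiquitin ligase marks. An F-box protein binds the linker SKP1 through its F-box and so joins the CUL1 scaffold, forming an SCF (SKP1, cullin, F-box) ligase, and its other domain holds the substrate. That domain contains leucine-rich repeats in the FBXL proteins, WD40 repeats in the FBXW proteins and various or no known repeats in the FBXO proteins. KLHL proteins carry a BTB domain that binds CUL3 directly and Kelch repeats that hold the substrate, so a single chain does the work of linker and receptor. In neurons such adaptors are known for the turnover of synaptic, cytoskeletal and cell cycle proteins. CELF2 is an RNA-binding protein of the CUGBP and ELAV-like family that acts on splicing in the nucleus and on stability and translation of mRNA in the cytoplasm.

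The libraries held 15919600 to 20052716 estimated counts in CELF2-KI RIP, 17365561 to 28773130 in IgG RIP and 69125700 to 105116427 in input. Of these, rRNA took 1.44 to 1.78% in CELF2-KI RIP, 11.0 to 35.0% in IgG RIP and 1.44 to 2.28% in input. Levels are given as CPM, the counts of a gene relative to the protein-coding counts of its library, on library sizes scaled with edgeR's TMM method. Because no transcript length was used, CPM of different genes are not compared. Markers of excitatory neurons summed to 1568 to 2180 CPM in CELF2-KI RIP, 852 to 983 in IgG RIP and 909 to 1077 in input. Of these 6, edgeR called 3 and DESeq2 1 above both controls, and 1 was lower than input by an unadjusted p under 0.05 (edgeR). Inhibitory neuron markers summed to 436 to 597 CPM in CELF2-KI RIP, 242 to 300 in IgG RIP and 327 to 340 in input. Of these 5, 1 was called above both controls, while edgeR and DESeq2 each called 1 lower than input. Radial glia markers summed to 165 to 256, 454 to 498 and 572 to 615 CPM, and erythroid markers to 92.7 to 94.9, 366 to 584 and 877 to 1135 CPM, in the same order, with 2 of 6 and 4 of 5 tested markers called below both controls. Summed markers of astrocytes and of microglia were higher in CELF2-KI RIP than in IgG RIP but overlapped input. Single markers went both ways. Against input, edgeR called 1 of 4 tested microglia markers higher and 2 lower, and 0 of 5 astrocyte markers in either direction. By an unadjusted p under 0.05 in both comparisons (edgeR), 1 microglia marker was above both controls and 2 below, and 1 astrocyte marker each way. None of the markers of these lists was at 0 in all libraries. Per the methods, input and both pull-downs were taken from the same cytoplasmic fraction. The marker sums therefore describe the RNA held by each library, not numbers of cells, and their part in the results below was not tested.

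Of the 115 adaptor genes, 114 had transcript rows, 111 had a count in any library and 95 passed the filter of 0.5 CPM in at least 3 libraries, among 15267 genes tested. The tested members were 33 *Fbxo*, 18 *Fbxl*, 10 *Fbxw* and 34 *Klhl* genes. A call needed a change of at least 2-fold and an FDR (Benjamini-Hochberg, over all tested genes) under 0.01 in edgeR's quasi-likelihood test on the 9 libraries together. Genes called above IgG RIP and also above input in the CELF2 pull-down are named targets here, after the rule of the study.

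By edgeR, targets were found in each of the 4 families. In all, 15 of the 95 tested members, or 15.8%, were targets, where 7.58% of all tested genes were. They were 7 of 34 *Klhl* genes (20.6%), 3 of 18 *Fbxl* genes (16.7%), 4 of 33 *Fbxo* genes (12.1%) and 1 of 10 *Fbxw* genes (10.0%). The DESeq2 Wald test called 7 *Klhl*, 2 *Fbxl*, 3 *Fbxo* and 0 *Fbxw* genes above both controls. Its 7 *Klhl* genes held *Klhl3* in place of *Klhl24*. The order of the families hung on the libraries and the scaling. Without CELF2-KI RIP 2, the targets were 3 *Klhl*, 2 *Fbxl*, 3 *Fbxo* and 1 *Fbxw* genes, and with TMM factors taken over coding and noncoding genes they were 1 *Klhl* and 2 *Fbxl* genes. Lower than both controls were 4 members, or 4.21%, against 9.54% of all tested genes, and these were 2 *Fbxl* genes, 1 *Fbxo* gene and 1 *Fbxw* gene. No *Klhl* gene was lower than both controls, either by edgeR's quasi-likelihood test, by an unadjusted p under 0.05 in both comparisons (0 genes) or by DESeq2 (0 genes). These shares describe the families, since members are not replicates and the differences between families were not tested.

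Against IgG RIP alone, 17 members were higher and 7 lower in CELF2-KI RIP, against a background of 13.4% higher and 13.6% lower over all tested genes. Set against input, 27 were higher and 6 lower, with backgrounds of 14.6% and 15.5%. Without CELF2-KI RIP 2, 11 members were higher than IgG RIP. Over IgG RIP the median (log2 fold change) stood at -0.06 for all tested genes and 0.15 for the 95 members, and over input it was 0.19 and 0.64. Medians move with the scaling of the libraries, so each family is given relative to the median of all tested genes. Over input, that difference was 0.72 for *Fbxl*, 0.51 for *Fbxo*, 0.50 for *Klhl* and -0.08 for *Fbxw*, on the log2 scale. Over IgG RIP it was 0.31 for *Klhl*, 0.24 for *Fbxo*, 0.17 for *Fbxw* and 0.12 for *Fbxl*. Among the 5 scalings tried, no family's difference moved by more than 0.02 from these values. A scaling shifts all genes of a library nearly alike, so these differences could hardly move with it. Single libraries did move some of them. The *Fbxw* difference over IgG RIP was -0.03 without CELF2-KI RIP 1 and 0.28 without CELF2-KI RIP 2, and over input it was 0.08 without CELF2-KI RIP 2 and -0.19 without CELF2-KI RIP 1. For *Fbxo* the difference over IgG RIP was 0.40 without IgG RIP 2, where that of *Klhl* was 0.33, and for *Fbxl* it ranged from 0.07 without CELF2-KI RIP 3 to 0.19 without CELF2-KI RIP 1. The filter and the transcripts counted moved them too. The *Fbxw* difference was -0.15 over IgG RIP and -0.22 over input without a filter, and 0.30 and 0.27 with version-matched transcripts only. With curated transcripts only, that of *Fbxo* over input was 0.27.

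**Figure D1:**
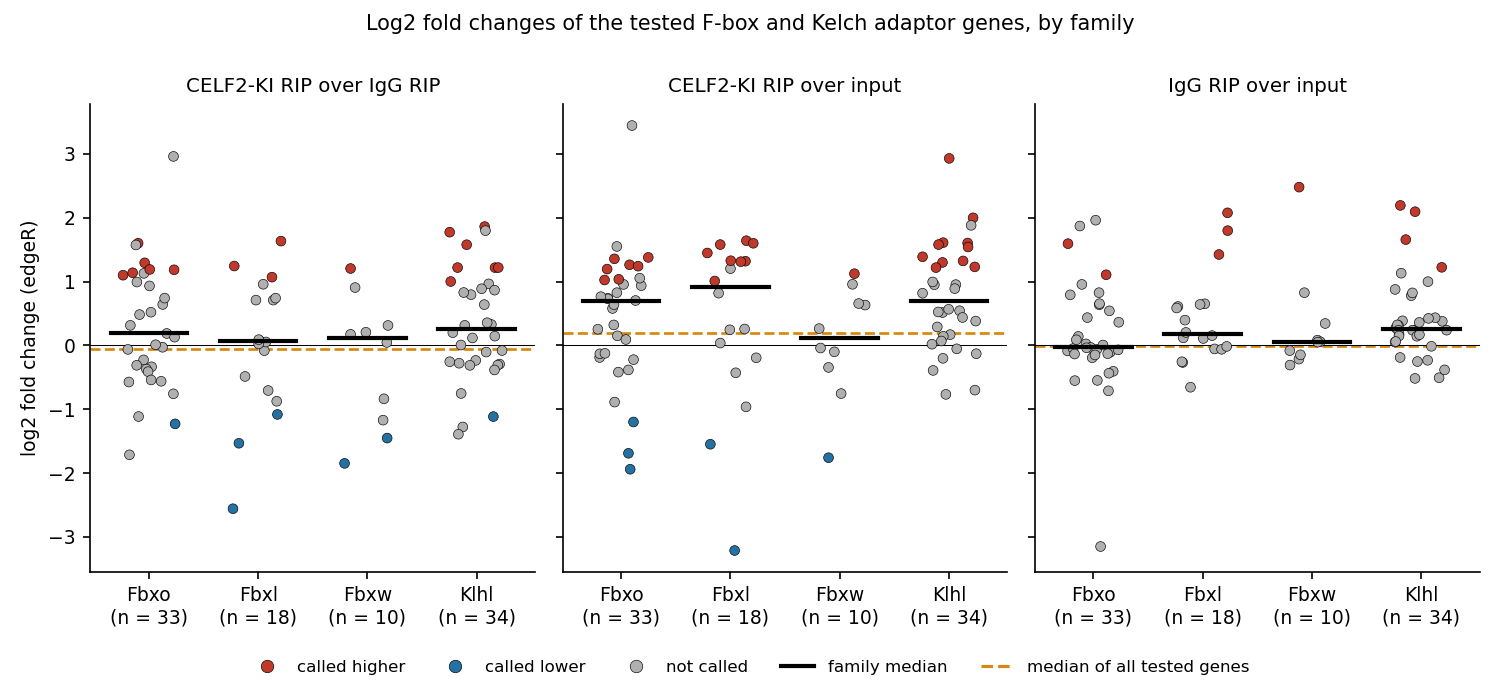
Each point is a tested adaptor gene, placed by its log2 fold change from edgeR in the 3 comparisons and coloured by its call, with black bars for family medians and a dashed line for the median of all 15267 tested genes. The family bars for *Fbxo*, *Fbxl* and *Klhl* lie above the dashed line over input, where that of *Fbxw* lies just below it. This order to the dashed line was the same under the 5 scalings, which shift all genes nearly alike and so could hardly change it. Over input, *Fbxw* lay above the line by 0.08 without CELF2-KI RIP 2 and by 0.27 with version-matched transcripts only.

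The number of calls, unlike these differences, hung on the scaling. Relative to TMM over the coding genes, scaling to total counts lowered the median of all tested genes by 0.37 over IgG RIP and 0.46 over input, upper-quartile scaling by 0.26 and 0.24, and TMM factors taken over coding and noncoding genes by 0.21 and 0.39. The split of 17 higher to 7 lower members over IgG RIP became 4 to 12, 5 to 10 and 6 to 9 under these 3, and the split of 27 to 6 over input became 8 to 8, 19 to 7 and 9 to 8. Targets then numbered 2, 4 and 3 of the 95 members, against 1.55%, 3.40% and 2.46% of all tested genes.

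The *Fbxo* family had 4 targets. *Fbxo21* (chr5:117976770-118010198, mm10), which directs turnover of the transcriptional regulator EID1, was at 327, 426 and 353 CPM with anti-CELF2, 131, 154 and 167 with IgG and 153, 150 and 158 in input. Its lowest pull-down library lay well above its highest control library. Its pull-down exceeded IgG RIP by a log2 fold change of 1.29 (SE 0.13, FDR 2.63e-05, edgeR) and input by 1.26 (SE 0.13, FDR 2.56e-05), and it stayed a target when any single library was left out. *Fbxo33* (chr12:59200655-59221961), which acts on the Y-box protein YB-1, was at 22.2, 32.8 and 27.0 CPM with anti-CELF2, 9.82, 10.7 and 6.59 with IgG and 12.1, 12.4 and 11.3 in input. The groups did not overlap, and the log2 fold changes were 1.60 over IgG RIP (SE 0.21, FDR 0.000125, edgeR) and 1.20 over input (SE 0.20, FDR 0.000536).

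*Fbxo45* (chr16:32230112-32247025) encodes a neuronal F-box protein that pairs with the ligase PAM, encoded by *Mycbp2*, rather than with CUL1, and acts at synapses. It was at 75.6, 81.7 and 85.0 CPM with anti-CELF2, 36.0, 35.4 and 35.2 with IgG and 38.4, 39.3 and 40.4 in input. The replicates lay close together, and the change was just over 2-fold, with log2 fold changes of 1.19 over IgG RIP (SE 0.10, FDR 1.39e-05, edgeR) and 1.04 over input (SE 0.10, FDR 2.09e-05). *Fbxo28* (chr1:182313102-182341606), which ubiquitylates MYC and whose human counterpart is mutated in an epileptic encephalopathy, was at 58.0, 81.9 and 65.9 CPM with anti-CELF2, 29.0, 31.7 and 35.3 with IgG and 29.6, 28.3 and 29.2 in input. Its log2 fold changes were 1.10 over IgG RIP (SE 0.15, FDR 0.000144, edgeR) and 1.24 over input (SE 0.15, FDR 5.61e-05). Both calls rested on the 2-fold threshold. *Fbxo45* fell below it over input without any of the 3 input libraries or without CELF2-KI RIP 3 (lowest log2 fold change 0.91), and *Fbxo28* fell below it over IgG RIP without any of the input libraries or without CELF2-KI RIP 2 (lowest 0.95). Input libraries enter a comparison with IgG RIP only through the scaling and the shared spread. Leaving out any of them shifted the median of all tested genes over IgG RIP by -0.10, which bears on *Fbxl5* and *Klhl24* below too.

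*Fbxl14* had the largest change over IgG RIP among the 3 *Fbxl* targets. This adaptor (chr6:119479668-119483886) is known for the turnover of the transcription factor Snail. It was at 81.3, 169 and 120 CPM with anti-CELF2, 40.5, 47.6 and 31.3 with IgG and 40.7, 40.8 and 42.3 in input. No library of the pull-down overlapped the controls, and the log2 fold changes were 1.63 over IgG RIP (SE 0.25, FDR 0.000289, edgeR) and 1.58 over input (SE 0.24, FDR 0.000286). Its span overlaps that of *Wnt5b*. *Fbxl18* (chr5:142871789-142896721), a further leucine-rich repeat adaptor, was at 65.4, 134 and 98.7 CPM with anti-CELF2, 40.8, 46.1 and 38.9 with IgG and 29.3, 30.3 and 35.8 in input. The spread within the pull-down was wide, and the log2 fold changes were 1.24 over IgG RIP (SE 0.22, FDR 0.00095, edgeR) and 1.64 over input (SE 0.22, FDR 0.000141). Without CELF2-KI RIP 2, the value over IgG RIP was 0.97 and the call was lost.

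*Fbxl5* (chr5:43744618-43782149) encodes the iron-sensing adaptor that degrades iron regulatory protein IRP2. It was at 121, 110 and 112 CPM with anti-CELF2, 50.7, 53.7 and 59.6 with IgG and 59.3, 59.2 and 52.5 in input. The pull-down stood far from both controls for its small spread, with log2 fold changes of 1.07 over IgG RIP (SE 0.11, FDR 3.13e-05, edgeR) and 1.01 over input (SE 0.11, FDR 3.56e-05). The second value sat on the 2-fold threshold and dropped below it without any input library or without CELF2-KI RIP 1 (lowest 0.84), while that over IgG RIP fell to 0.97 without an input library.

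*Fbxw11* (chr11:32642555-32746816) was the single *Fbxw* target. It encodes β-TrCP2, which recognises phosphorylated β-catenin and IκB. Its values were 118, 161 and 156 CPM with anti-CELF2, 56.7, 68.7 and 63.3 with IgG and 61.8, 63.2 and 74.4 in input. The pull-down libraries lay above all controls, with log2 fold changes of 1.21 over IgG RIP (SE 0.15, FDR 8.29e-05, edgeR) and 1.12 over input (SE 0.15, FDR 0.000102). Without input 1 or input 2 the value over input was under 1, with a lowest value of 0.96. Its paralog *Btrc*, which encodes β-TrCP1 and was not among the 115 genes, was at 70.0, 80.4 and 117 CPM with anti-CELF2, 84.2, 22.4 and 50.5 with IgG and 49.6, 50.4 and 56.2 in input, and its groups overlapped (log2 fold change over IgG RIP 0.76, SE 0.38, FDR 0.112, edgeR).

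The *Klhl* family had 7 targets. *Klhl42* (chr6:147090615-147112778), which directs turnover of the microtubule-severing enzyme katanin, was at 72.4, 108 and 83.9 CPM with anti-CELF2, 29.0, 29.3 and 30.1 with IgG and 33.8, 33.2 and 33.9 in input. All 6 control libraries lay within a few CPM of each other, and the log2 fold changes were 1.58 over IgG RIP (SE 0.15, FDR 1.89e-05, edgeR) and 1.39 over input (SE 0.15, FDR 2.86e-05). *Klhl12* (chr1:134455495-134490880), an adaptor for Dishevelled and for the COPII coat protein SEC31, was at 62.6, 99.1 and 79.8 CPM with anti-CELF2, 31.9, 36.0 and 36.0 with IgG and 27.0, 26.7 and 25.7 in input. Its log2 fold changes were 1.22 over IgG RIP (SE 0.16, FDR 0.000137, edgeR) and 1.60 over input (SE 0.16, FDR 2.38e-05), again with no overlap.

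*Klhl2* (chr8:64739673-64850169), an actin-binding adaptor for WNK kinases, was at 137, 236 and 178 CPM with anti-CELF2, 83.6, 87.3 and 66.1 with IgG and 59.6, 62.6 and 62.2 in input. It exceeded IgG RIP by 1.22 on the log2 scale (SE 0.19, FDR 0.000334, edgeR) and input by 1.58 (SE 0.19, FDR 5.8e-05). *Klhl21* (chr4:152008891-152017677), an adaptor for Aurora B in cytokinesis, was at 23.9, 42.9 and 31.0 CPM with anti-CELF2, 14.1, 15.8 and 12.2 with IgG and 8.02, 8.40 and 8.04 in input. It showed the largest change over input among the targets, with a log2 fold change of 1.999 (SE 0.21, FDR 2.87e-05, edgeR), and 1.22 over IgG RIP (SE 0.21, FDR 0.000675). Neither gene's groups overlapped. Without CELF2-KI RIP 2, the library with the highest value for both, the log2 fold changes over IgG RIP were 0.998 for *Klhl2* and 0.97 for *Klhl21*, and both calls were lost.

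*Klhl24* and *Klhl8* were less firm. *Klhl24* (chr16:20097553-20129226), which acts on keratin 14 in skin and binds a kainate receptor subunit, was at 224, 306 and 247 CPM with anti-CELF2, 127, 122 and 139 with IgG and 106, 107 and 97.4 in input. The groups did not overlap, and the log2 fold changes were 1.002 over IgG RIP (SE 0.13, FDR 0.000108, edgeR) and 1.32 over input (SE 0.13, FDR 1.94e-05). The first sat at the 2-fold threshold, and leaving out CELF2-KI RIP 2, IgG RIP 1, IgG RIP 2 or any input library ended the call (lowest 0.86), as did the replicate number as a block (0.99, FDR 0.000544, edgeR). With curated transcripts only, which held 35.7% of its counts, its log2 fold change over IgG RIP was 0.65 (FDR 0.173, edgeR). *Klhl8* (chr5:103862050-103911259), whose worm relative acts on rapsyn at the neuromuscular junction, was at 67.7, 93.3 and 86.3 CPM with anti-CELF2, 7.76, 29.3 and 35.5 with IgG and 28.8, 29.7 and 26.4 in input. IgG RIP 1 stood far below the other control libraries, yet no control reached the pull-down. The log2 fold changes were 1.77 over IgG RIP (SE 0.42, FDR 0.0046, edgeR) and 1.54 over input (SE 0.41, FDR 0.00789), and at least one call was lost without any library but IgG RIP 1 and IgG RIP 3, with FDR values up to 0.0419.

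*Klhl10* (chr11:100441128-100457027) had the largest log2 fold change over IgG RIP of all targets in these families, 1.86 (SE 0.19, FDR 2.75e-05, edgeR), with 1.61 over input (SE 0.18, FDR 4.64e-05). It was at 76.4, 110 and 73.1 CPM with anti-CELF2, 20.7, 25.7 and 25 with IgG and 32.3, 28.1 and 24.5 in input. KLHL10 is known as a testis protein required for male fertility. Predicted transcripts held 99.2% of its estimated counts and the curated coding transcript 0.814%. With curated transcripts only, its log2 fold change over IgG RIP was 0.95 with an FDR of 0.592 from edgeR, and it was not a target. Its span overlaps that of *Nt5c3b*.

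**Figure D2:**
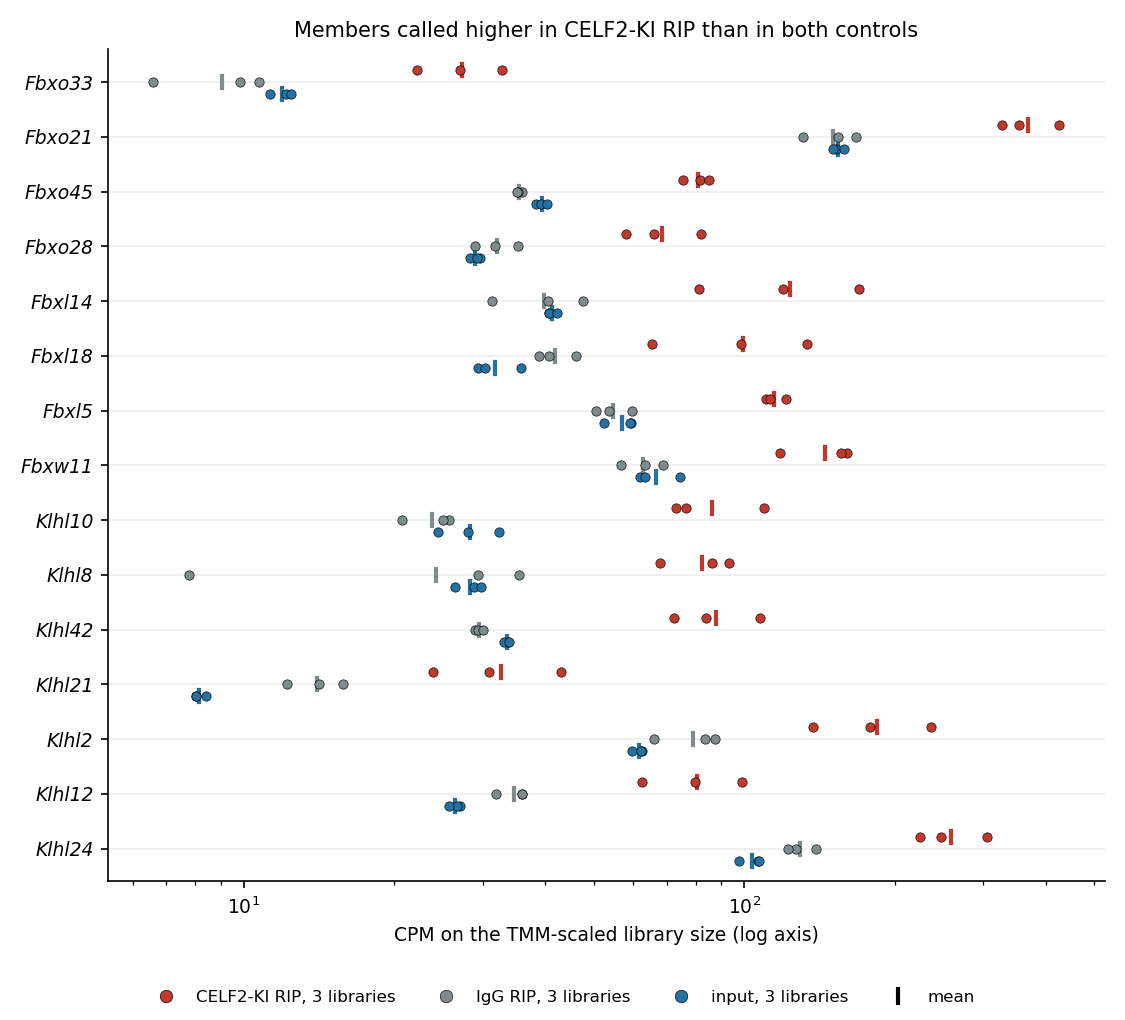
CPM of the 15 targets in every library on a log axis, ordered by family and then by the log2 fold change over IgG RIP, with points for libraries and ticks for group means. In every row the 3 CELF2-KI RIP points lie to the right of all 6 control points, as for *Fbxo21* with 327 CPM as its lowest pull-down value and 167 CPM as its highest control value.

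All 15 targets had every CELF2-KI RIP library above every control library, an order that the calls largely fix. A further 20 tested members had it without being called, so 35 of the 95, or 36.8%, were ordered in this way, where 25.2% of all tested genes were. The reverse order, with all pull-down libraries below all controls, was seen for 9 members (9.47%), where 19.9% of all tested genes had it. By family, those above all controls were 14 of 34 *Klhl*, 7 of 18 *Fbxl*, 11 of 33 *Fbxo* and 3 of 10 *Fbxw* genes. The targets were members with many counts. When all tested genes were cut into 4 equal groups by mean CPM, the targets among members numbered 0 of 24, 2 of 22, 7 of 29 and 6 of 20 from the lowest to the highest group, and 0.681%, 3.27%, 8.23% and 18.1% of all tested genes in these groups were targets.

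Below both controls in the CELF2 pull-down were *Fbxl15*, *Fbxl6*, *Fbxo44* and *Fbxw5*. *Fbxl15* (chr19:46328184-46330446), an adaptor for the ligase SMURF1 in bone morphogenetic protein signalling, was at 1.60, 1.23 and 0.0892 CPM with anti-CELF2, 6.005, 4.16 and 7.31 with IgG and 10.4, 9.45 and 7.78 in input. It showed the lowest log2 fold changes, -2.56 under IgG RIP (SE 0.55, FDR 0.0027, edgeR) and -3.21 under input (SE 0.54, FDR 0.000555), with 20, 16 and 1 counts behind the pull-down values, and its span overlaps that of *Cuedc2*. *Fbxw5* (chr2:25500750-25505470), which acts on the centriole protein SAS-6, was at 15.5, 11.4 and 14.2 CPM with anti-CELF2, 37.2, 30.9 and 44.1 with IgG and 47.6, 43.8 and 47.6 in input. Its log2 fold change was -1.45 against IgG RIP (SE 0.17, FDR 6.23e-05, edgeR) and -1.76 against input (SE 0.17, FDR 1.85e-05).

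*Fbxl6* (chr15:76535723-76538746) was at 11.4, 8.85 and 7.94 CPM with anti-CELF2, 31.1, 27.8 and 22.8 with IgG and 27.1, 27.8 and 27.7 in input, with log2 fold changes of -1.53 (SE 0.18, FDR 5.49e-05, edgeR) and -1.55 (SE 0.17, FDR 4.23e-05). *Fbxo44* (chr4:148152799-148160183), a brain-enriched member of the sugar-binding F-box group, was at 8.63, 5.54 and 8.65 CPM with anti-CELF2, 19.8, 16.8 and 16.8 with IgG and 29.9, 27.2 and 30.4 in input. Its log2 fold changes were -1.23 (SE 0.19, FDR 0.000312, edgeR) and -1.94 (SE 0.19, FDR 1.8e-05). In each of these 4 genes the pull-down libraries lay below all controls, and each call held when any single library was left out. With curated transcripts only, 2 of the 4 kept it. *Fbxl15* (FDR 0.0157 against IgG RIP) and *Fbxo44* (FDR 0.109 against input) did not, and the curated transcripts of *Fbxo44* held 33.8% of its counts. *Fbxo2*, a relative of *Fbxo44* and a neuronal adaptor for glycoproteins with high-mannose sugars, was at 3.28, 1.77 and 2.23 CPM with anti-CELF2, 5.50, 6.74 and 3.58 with IgG and 5.91, 5.95 and 4.87 in input. It was lower than input (log2 fold change -1.20, SE 0.31, FDR 0.00665, edgeR), a call lost in 5 of the 9 fits that left out a library (FDR up to 0.0294), and against IgG RIP it missed the FDR threshold (-1.11, SE 0.31, FDR 0.0122).

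A set of adaptors was raised in the IgG pull-down, and part of it was raised in the CELF2 pull-down too. Against input, 10 members were higher in IgG RIP, or 10.5%, where 6.79% of all tested genes were, and 0 were lower by edgeR's quasi-likelihood test, where 5.0% of all tested genes were. By an unadjusted p under 0.05 from edgeR, 4 members were lower, and DESeq2 called 0, and without IgG RIP 3 edgeR called 1, *Fbxo11*. With the replicate number as a block, 7 members were higher in IgG RIP than in input. None of the 10 was a target. *Fbxw23* was at 4.57, 5.55 and 7.09 CPM in IgG RIP, 0.858, 1.26 and 0.954 in input and 1.44, 2.16 and 1.16 in CELF2-KI RIP. It showed the largest rise, a log2 fold change of 2.48 (SE 0.33, FDR 0.000504, edgeR), on a single predicted transcript, and stood when any single library was left out. *Klhl41*, a nemaline myopathy gene of striated muscle, was at 4.50, 3.17 and 1.22 CPM in IgG RIP and 0.572, 0.903 and 0.453 in input (log2 fold change 2.19, SE 0.52, FDR 0.00826, edgeR). *Klhl31*, a sarcomere gene, was at 2.88, 1.78 and 2.15 CPM in IgG RIP and 0.493, 0.628 and 0.469 in input (2.10, SE 0.49, FDR 0.0078, edgeR). CELF2-KI RIP exceeded input by 1.88 on the log2 scale for *Klhl41* (FDR 0.0102, edgeR) and 0.82 for *Klhl31* (FDR 0.189). Against IgG RIP it was at -0.31 (FDR 0.635) and -1.28 (FDR 0.0565). *Klhl41* was called over input in CELF2-KI RIP in 3 of the 9 fits that left out a library. Both muscle genes rested on few reads, and *Klhl41* kept the call in 2 and *Klhl31* in 3 of the 9 fits that left out a library (FDR up to 0.0381 and 0.0382). With the replicate block neither was called (FDR 0.0132 for *Klhl41* and 0.02 for *Klhl31*, edgeR).

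*Klhl17*, which encodes the neuronal actin-binding protein actinfilin, was at 123.5, 94.5 and 53.7 CPM in IgG RIP, 27.5, 27.8 and 30.8 in input and 38.7, 39.6 and 47.2 in CELF2-KI RIP. Its log2 fold change in IgG RIP over input was 1.66 (SE 0.25, FDR 0.000851, edgeR). CELF2-KI RIP lay below IgG RIP by -1.11 (SE 0.25, FDR 0.00347), and this call was lost without CELF2-KI RIP 1, CELF2-KI RIP 2, IgG RIP 1 or IgG RIP 2 (smallest change -0.82) and with the replicate block (-1.08, FDR 0.0105, edgeR). *Fbxl21*, an adaptor for cryptochromes, was raised in both pull-downs. It was at 34.2, 30.5 and 23.1 CPM in IgG RIP and 15.3, 30.0 and 17.4 in CELF2-KI RIP, against 7.55, 9.79 and 7.91 in input. The log2 fold change over input was 1.80 for IgG RIP (SE 0.26, FDR 0.000705, edgeR) and 1.31 for CELF2-KI RIP (SE 0.26, FDR 0.00146), and the pull-downs did not differ from each other at the threshold (-0.49, SE 0.26, FDR 0.136). The CELF2-KI RIP call was lost without CELF2-KI RIP 2, input 1 or input 3 (lowest log2 fold change 0.96). Predicted transcripts held 94.4% of the counts of *Fbxl21*, whose span overlaps that of *Lect2*, and with curated transcripts only its log2 fold change of IgG RIP over input was 0.71 (FDR 0.44, edgeR).

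Also raised in IgG RIP over input were *Fbxo34*, *Klhl34* and, named after their values were seen, *Fbxl22* and *Fbxo47*. *Fbxo34* was at 55.6, 56.1 and 52.1 CPM in IgG RIP, 26.6, 24.8 and 24.6 in input and 38.9, 46.3 and 41.6 in CELF2-KI RIP (log2 fold change 1.11 for IgG RIP over input, SE 0.12, FDR 0.000178, edgeR), with close replicates and CELF2-KI RIP between the other groups. *Klhl34*, the heart gene *Fbxl22* and the meiosis gene *Fbxo47* had log2 fold changes of 1.22, 2.08 and 1.59. *Klhl34* kept its call in 4 fits that left out a library and lost it with the replicate block (FDR 0.0135, edgeR), while *Fbxl22* kept it in 8 and *Fbxo47* in 4 such fits. *Klhl34* was raised in both pull-downs, at 23.0, 21.1 and 11.8 CPM in IgG RIP and 14.2, 18.5 and 23.5 in CELF2-KI RIP, against 8.72, 7.54 and 7.61 in input. It was called over input in CELF2-KI RIP too (log2 fold change 1.23, SE 0.26, FDR 0.00221, edgeR), a call lost without CELF2-KI RIP 3 or any input library (FDR up to 0.0176), and the pull-downs did not differ from each other at the threshold (0.01, SE 0.26, FDR 0.986). All 10 had every IgG RIP library above every input library, an order that the calls largely fix. It was found for 35 of the 95 tested members (36.8%) and for 27.1% of all tested genes. The set of 10 called members depended on the transcripts and libraries used. With curated transcripts only, 2 members were called, and without IgG RIP 1 and IgG RIP 2, the libraries with 35.0 and 33.0% rRNA, 2 were. Leaving out one library gave between 4 and 13, with 4 without input 1, 5 without input 2 and 6 without input 3 or IgG RIP 2. Muscle markers summed to 23.1 to 29.2 CPM in IgG RIP, 14.0 to 14.3 in input and 8.48 to 10.5 in CELF2-KI RIP. Of the 5 markers, 3 passed the filter, and 1 was called higher in IgG RIP than in input. By an unadjusted p under 0.05 (edgeR), 2 were higher there and 1 was lower. The part of these markers in the *Klhl31* and *Klhl41* values was not tested.

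**Figure D3:**
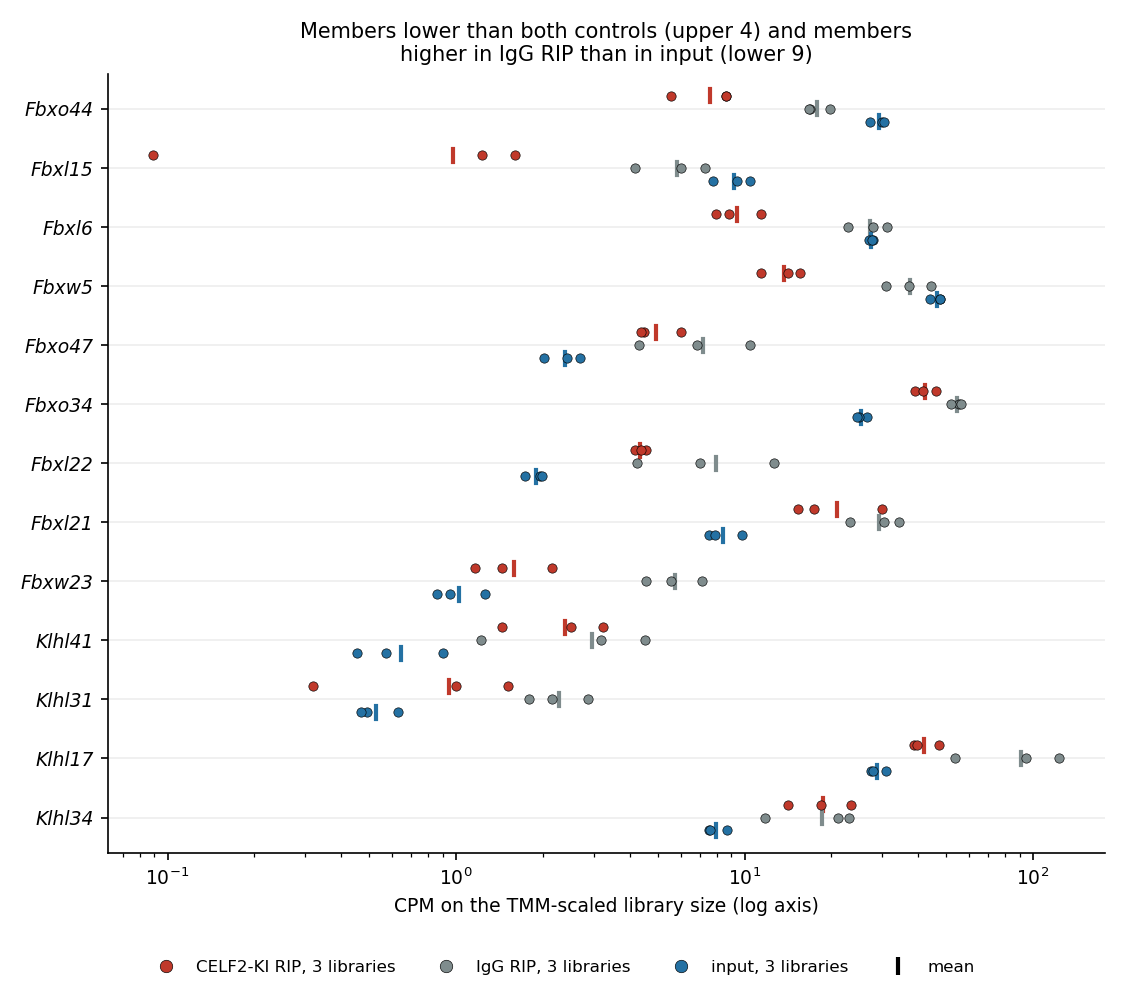
CPM in every library on a log axis for the 4 members lower than both controls and 9 of the 10 members higher in IgG RIP than in input, with points for libraries and ticks for group means. In the upper 4 rows the CELF2-KI RIP points lie left of all controls, and in the lower 9 rows the IgG RIP points lie right of the input points, as for *Fbxw23* at 4.57 to 7.09 CPM against 0.858 to 1.26.

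The members were also sorted into role lists, chosen with earlier results of these data known. One held 10 *Klhl* adaptors of known substrates, though not every such gene, as *Klhl42* is outside it. Of these 10, 4 were targets (*Klhl2*, *Klhl12*, *Klhl21* and *Klhl24*) and 6 were higher than input, where 7.58% and 14.6% of all tested genes were. Their log2 fold changes had a median of 0.92 over IgG RIP and 1.27 over input, against -0.06 and 0.19 for all tested genes. *Klhl7*, an adaptor mutated in retinitis pigmentosa, was at 202, 250 and 222 CPM with anti-CELF2, 138, 120 and 130 with IgG and 99.0, 103 and 87.4 in input, and was called over input only (log2 fold change 1.22, SE 0.12, FDR 1.88e-05, edgeR). *Klhl9* and *Klhl13* serve Aurora B together with *Klhl21*. *Klhl9* was at 225, 232 and 216 CPM with anti-CELF2, 112, 119 and 148 with IgG and 130, 124 and 109 in input, separated from both controls but short of 2-fold (log2 fold changes 0.83 and 0.89). *Klhl13* was at 51.6, 30.0 and 44.3, at 26.4, 30.5 and 44.3, and at 51.7, 50.5 and 42.6 CPM in the same order, and its groups overlapped. *Klhl15*, an adaptor for a regulatory subunit of the phosphatase PP2A, and *Klhl22*, an adaptor for the mitotic kinase PLK1, had log2 fold changes of 0.64 (FDR 0.0195, edgeR) and 0.12 (FDR 0.874) over IgG RIP and were called in no comparison.

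*Klhl3*, like *Klhl2* an adaptor for WNK kinases, was at 18.5, 40.03 and 22.7 CPM with anti-CELF2, 2.13, 15.5 and 6.30 with IgG and 4.42, 3.49 and 2.75 in input. It passed the thresholds against input (log2 fold change 2.93, SE 0.57, FDR 0.00135, edgeR), and over IgG RIP it missed the FDR threshold (1.80, SE 0.57, FDR 0.0204). With the DESeq2 Wald test, at an FDR of 0.05 or without IgG RIP 2, it was a target. Over input the call was lost without input 3 (FDR 0.0104). All of its counts fell on 3 predicted transcripts, and the one that held most of them in CELF2-KI RIP, with 232, 429 and 253 estimated counts, held 0.276, 1.27 and 0.503 in IgG RIP. In input it held 211, 0.00245 and 0.000757, so the assignment differed between replicates of input as well. Another, with 33.2, 155 and 87.8 in IgG RIP, held under 1 in each CELF2-KI RIP library.

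Among 9 adaptors known from the nervous system, 1 was a target, *Fbxo45*, near the background of 7.58%. In this list DESeq2 called 0 targets and 1 gene lower than both controls. The median of the list on the log2 scale was 0.07 against IgG RIP and 0.26 against input. *Fbxl20*, which degrades the presynaptic protein RIM1, came close, at 115, 191 and 141 CPM with anti-CELF2, 70.7, 77.2 and 82.3 with IgG and 46.8, 49.7 and 51.02 in input. The groups did not overlap, and the log2 fold changes were 1.60 over input (SE 0.17, FDR 3.11e-05, edgeR) and 0.96 over IgG RIP (SE 0.17, FDR 0.000798), just under 2-fold. Without CELF2-KI RIP 1 or IgG RIP 3 it passed 2-fold over IgG RIP too (highest 1.11). *Fbxo7*, a parkinsonism gene, showed the reverse, at 14.0, 17.8 and 18.9 CPM with anti-CELF2, 6.63, 7.03 and 8.53 with IgG and 11.4, 9.88 and 11.3 in input, and was called over IgG RIP (log2 fold change 1.19, SE 0.18, FDR 0.000281, edgeR) but not over input (0.64, SE 0.17, FDR 0.00816). *Fbxo41*, a neuron-specific centrosomal adaptor, was at 262, 223 and 258, 265, 277 and 215, and 148, 137 and 152 CPM in CELF2-KI RIP, IgG RIP and input. Both pull-downs lay above input by under 2-fold, and they did not differ from each other at the threshold (log2 fold change -0.03, SE 0.12, FDR 0.86, edgeR). *Fbxl16*, *Fbxw8*, *Klhl1* and *Klhl20* differed from IgG RIP by -0.26 to 0.21 on the log2 scale and were called in no comparison.

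Of 7 adaptors for cell cycle and signalling substrates, *Fbxw11* was a target and *Fbxw5* was lower than both controls, near the backgrounds of 7.58% and 9.54%. By DESeq2, 0 were targets and 1 was lower than both controls. These 7 had medians of 0.48 against IgG RIP and 0.66 against input on the log2 scale. *Fbxo31*, which acts on cyclin D1, was at 154, 147 and 161 CPM with anti-CELF2, 101.1, 116 and 114 with IgG and 76.2, 72.7 and 78.1 in input, and was called over input only (log2 fold change 1.03, SE 0.10, FDR 1.91e-05, edgeR), a call lost without CELF2-KI RIP 3 or any input library (lowest 0.89). *Fbxw7*, the adaptor for cyclin E, MYC and Notch, was at 128, 129 and 137, at 109, 97.2 and 110, and at 87.4, 80.5 and 81.7 CPM in the same order. Its groups did not overlap, but its log2 fold changes of 0.31 and 0.66 were under 2-fold. *Fbxo5*, which encodes the mitotic inhibitor EMI1, overlapped between groups (log2 fold change 0.31 against IgG RIP, SE 0.43, FDR 0.562, edgeR).

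*Fbxo11*, an adaptor for BCL6, was listed at 0 in IgG RIP 1 and IgG RIP 2 and at 18.4 CPM in IgG RIP 3, while CELF2-KI RIP held 62.4, 52.9 and 30.8 CPM and input 66.8, 52.3 and 47.5. Its only transcript row carried 257 counts in IgG RIP 3. A 0 in such estimates may be a failed assignment of reads, so no fold is given against those libraries. Its span overlaps that of *Msh6*. CELF2-KI RIP and input overlapped (log2 fold change -0.19, SE 1.002, FDR 0.884, edgeR).

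Of 8 adaptors of striated muscle, 5 were tested and 0 were targets by edgeR, with 1 past an unadjusted p under 0.05 in both comparisons and 0 by DESeq2. With a background of 7.58%, a count of 0 among 5 genes says little. On the log2 scale their medians were -0.31 against IgG RIP and 1.38 against input. *Fbxo32*, the atrophy gene atrogin-1, was at 20.5, 36.3 and 31.5 CPM with anti-CELF2, 20.8, 15.5 and 16.4 with IgG and 11.2, 11.2 and 11.6 in input, and was called over input only (log2 fold change 1.38, SE 0.21, FDR 0.00027, edgeR). *Klhl40*, like *Klhl41* a nemaline myopathy gene, was at 1.12, 0.770 and 0.803, at 1.19, 3.77 and 2.22, and at 1.14, 1.10 and 1.29 CPM in CELF2-KI RIP, IgG RIP and input and was called in no comparison. *Fbxo40*, which acts on the insulin receptor substrate IRS1, had between 0 and 12 counts in each library. It was not called, but with the replicate number as a block it passed over input (log2 fold change 3.92, FDR 0.00573, edgeR). *Klhl30*, *Klhl33* and *Klhl38* did not pass the filter.

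Other members named for their level or change were *Fbxl19*, *Fbxl17*, *Fbxw9*, *Fbxl2*, *Fbxo16* and *Fbxw10*. *Fbxl19*, a CpG-binding adaptor, was at 220, 164 and 216 CPM with anti-CELF2, 210, 202 and 167 with IgG and 165, 161 and 176 in input, with overlap between all groups. *Fbxl17*, which removes mispaired BTB dimers such as those of Kelch adaptors, was at 230, 387 and 288, at 205, 202 and 146, and at 120, 126 and 116 CPM in the same order, with no overlap. It was called over input (log2 fold change 1.32, SE 0.19, FDR 0.000209, edgeR) and fell short of 2-fold over IgG RIP (0.71, SE 0.19, FDR 0.0094). A predicted noncoding transcript held 58.2% of its counts. With curated transcripts only it passed both comparisons (log2 fold changes 1.22, FDR 0.00951, and 1.76, FDR 0.00156, edgeR), and so it did with version-matched transcripts only (1.24, FDR 0.00651, and 1.72, FDR 0.0012). *Fbxw9* was at 50.9, 51.4 and 43.0 CPM with anti-CELF2, 18.5, 33.9 and 25.4 with IgG and 27.1, 24.8 and 22.9 in input. Its pull-down libraries lay above all controls but short of 2-fold (log2 fold changes 0.91 and 0.96). *Fbxl2*, a prenylated adaptor, was at 13.1, 12.4 and 8.92, at 35.9, 21.9 and 14.97, and at 15.5, 15.9 and 14.9 CPM. It was lower than IgG RIP (log2 fold change -1.08, SE 0.29, FDR 0.00869, edgeR), a call lost without any single RIP library but IgG RIP 3 (smallest change -0.68). *Fbxo16* was at 0.3998, 2.08 and 2.14 CPM with anti-CELF2, 4.82, 3.96 and 6.30 with IgG and 4.85, 4.89 and 5.14 in input. It was lower than input (log2 fold change -1.69, SE 0.46, FDR 0.00897, edgeR), but not with the replicate number as a block (FDR 0.0111) or in 7 of the 9 fits that left out a library (FDR up to 0.0206), and missed the threshold against IgG RIP (-1.71, SE 0.47, FDR 0.0102). *Fbxw10* ranged from 0.446 to 2.01 CPM over the libraries and was called in no comparison.

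Summed over members, every family took a larger CPM in CELF2-KI RIP than in input. The *Klhl* genes summed to 1886 ± 205 CPM (SD, n = 3) in CELF2-KI RIP, 1188 ± 35.3 in IgG RIP and 946 ± 34.3 in input, and the *Fbxo* genes to 1582 ± 83.8, 1069 ± 39.0 and 905 ± 19.8. *Fbxl* genes summed to 1190 ± 171, 815 ± 83.4 and 657 ± 13.3, and *Fbxw* genes to 526 ± 29.1, 407 ± 6.37 and 394 ± 6.16. In all 4 families the lowest CELF2-KI RIP library lay above the highest library of each control. As a plain share of protein-coding counts, without TMM, the order held for *Klhl* (0.149 to 0.162% in CELF2-KI RIP, 0.121 to 0.130% in IgG RIP, 0.102 to 0.111% in input) and *Fbxo* (0.129 to 0.132%, 0.111 to 0.120%, 0.102 to 0.104%). It did not for *Fbxw*, at 0.0381 to 0.0482%, 0.0433 to 0.0434% and 0.0448 to 0.0449%, where the groups overlapped, and CELF2-KI RIP and IgG RIP overlapped for *Fbxl* (0.0900 to 0.105% and 0.0756 to 0.0932%).

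**Figure D4:**
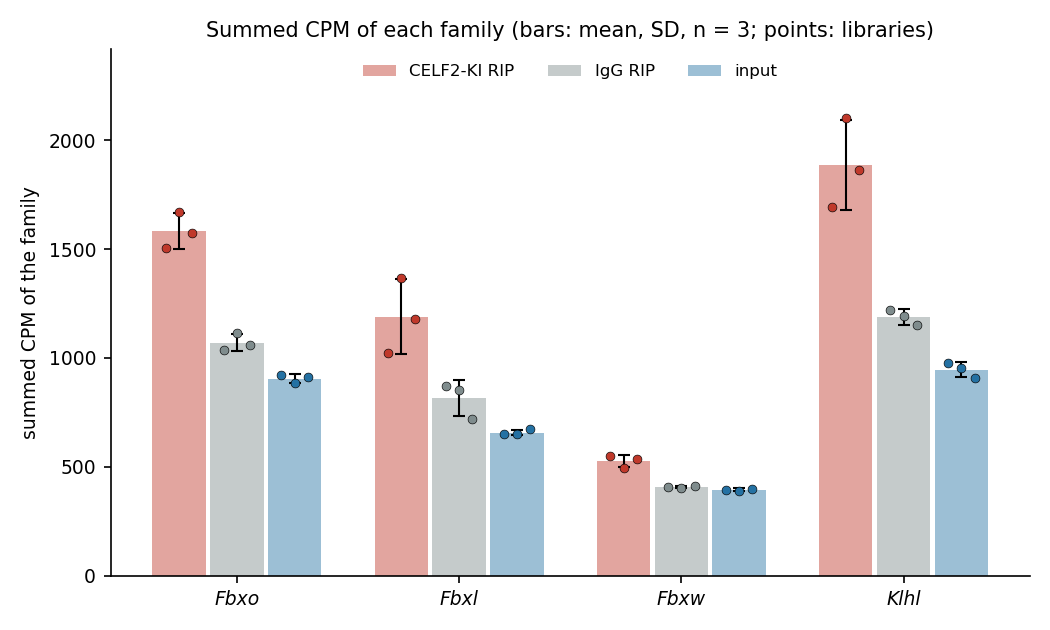
Summed CPM of each family by group on TMM-scaled library sizes, with bars for the mean, error bars for the SD of 3 libraries and points for the libraries. The CELF2-KI RIP points stand above both controls in all 4 families, from 493.2 to 549 CPM for *Fbxw* to 1694 to 2102 CPM for *Klhl*, and without TMM scaling those of *Fbxw* overlap the controls and those of *Fbxl* overlap IgG RIP.

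The families differed in how many members the cortex libraries held. All 18 *Fbxl* genes were tested, as were 33 of 36 *Fbxo* and 34 of 37 *Klhl* genes, but 10 of 24 *Fbxw* genes. The gap lies in a row of *Fbxw* genes on chromosome 9 (chr9:109139454-109790660, 651 kb), in which 15 genes follow each other, 14 had transcript rows and 1, *Fbxw23*, was tested. Related genes in such a row can share reads, so counts of single genes are uncertain. The row together summed to 7.62 ± 1.54 CPM (SD, n = 3) in IgG RIP, 2.23 ± 0.743 in CELF2-KI RIP and 1.51 ± 0.267 in input. *Fbxw23*, described above, held most of this sum in each group, so the sum is no separate result. Of the 19 members that had rows and were not tested, 3 (*Fbxo24*, *Fbxw21* and *Klhl33*) were at 0 in every library, and 9 had at most 3 counts in any library.

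The other genes of these ligases were listed for comparison, and in lists this small a count of 0 targets lies close to the background of 7.58%. Of 12 tested genes of the SCF core and its partners, edgeR called 0 targets and 0 lower than both controls, with 3 and 1 past an unadjusted p under 0.05 in both comparisons and 0 and 0 by DESeq2. *Skp1*, the linker, stood at 147 ± 35.1 CPM (SD, n = 3) with anti-CELF2, 110 ± 38.4 in IgG RIP and 180 ± 5.99 in input, and *Cul1*, the scaffold, at 30.9 ± 6.09, 53.1 ± 9.20 and 59.4 ± 3.14. *Rbx1*, the RING subunit, was higher than IgG RIP only (log2 fold change 1.21, SE 0.13, FDR 3.21e-05, edgeR), as was *Cks1b*, a cofactor of SKP2 (1.60, SE 0.20, FDR 8.36e-05, edgeR), which was also lower in IgG RIP than in input (-1.39, SE 0.19, FDR 0.000577). Among 7 tested genes of the CUL3 core, edgeR called 0 targets, with 2 past an unadjusted p under 0.05 in both comparisons and 0 by DESeq2. Of 8 cullin genes, none was a target or lower than both controls by edgeR or DESeq2 (0 each, with 1 in each direction past an unadjusted p under 0.05), and *Cul3* was at 46.4 ± 0.284, 43.3 ± 4.54 and 56.7 ± 2.77 CPM. *Cul9* was higher in IgG RIP than in input (1.35, SE 0.15, FDR 0.000242, edgeR).

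Neddylation switches cullins on and the COP9 signalosome switches them off. Of 24 tested genes of these steps, 5 were lower than both controls and 1, *Dcun1d4*, was a target, against the backgrounds of 9.54% and 7.58%. *Cops5*, the catalytic subunit of the signalosome, was at 13.8, 10.4 and 11.9 CPM with anti-CELF2, 29.5, 32.8 and 41.6 with IgG and 59.2, 58.0 and 55.6 in input (log2 fold changes -1.53, SE 0.16, FDR 3.83e-05 and -2.26, SE 0.17, FDR 4.05e-06, edgeR). *Cops4* and *Cops6*, further subunits, *Nedd8* and *Ube2m*, the modifier and its conjugating enzyme, were the other 4, with log2 fold changes from -1.61 to -1.25 against IgG RIP.

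Kelch genes also occur outside the *Klhl* symbols. Of 21 tested Kelch genes with other names, 4 were targets and 1 was lower than both controls, where 7.58% and 9.54% of all tested genes were, and on the log2 scale they had medians of 0.76 against IgG RIP and 0.68 against input. DESeq2 called 3 targets and 2 lower than both controls. *Enc1*, which encodes an actin-associated ectodermal-neural cortex protein, reached 2633 ± 479 CPM (SD, n = 3) with anti-CELF2, 917 ± 186 in IgG RIP and 1052 ± 74.2 in input (log2 fold change 1.52 over IgG RIP, SE 0.17, FDR 4.77e-05, edgeR). *Klhdc10* was at 464 ± 109, 141 ± 10.3 and 139 ± 1.82 CPM (1.72, SE 0.16, FDR 1.69e-05, edgeR), and *Kbtbd7* and *Kbtbd8* had 1.20 and 1.27. *Klhdc8a* was the gene lower than both controls (-1.03, SE 0.24, FDR 0.00406, edgeR). Among 17 BTB adaptors of CUL3 without Kelch repeats, 1 was a target, close to the background of 7.58%. It was *Kctd6*, which acts on ankyrin and a histone deacetylase (log2 fold change 1.10, SE 0.17, FDR 0.000307, edgeR). DESeq2 called 0 targets among these 17. Of 6 tested F-box genes with other names, edgeR called 0 targets, with 3 past an unadjusted p under 0.05 in both comparisons and 0 by DESeq2, and *Skp2*, the adaptor for the cell cycle inhibitor p27, exceeded IgG RIP by 0.24 on the log2 scale (FDR 0.242, edgeR).

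How firmly each target stood can be read from 22 alternatives, which changed the scaling, the filter, the test, the transcripts counted or the libraries used. *Fbxl14* was a target in 21 of them, *Klhl10* in 20, *Klhl42* in 19 and *Fbxo21*, *Fbxo33* and *Klhl12* in 18. *Fbxl18*, *Klhl2* and *Klhl21* were targets in 17, *Fbxw11* in 14, *Fbxo28* in 11, *Fbxo45* in 9, *Fbxl5* and *Klhl8* in 8 and *Klhl24* in 4. *Fbxl14*, *Fbxo21*, *Fbxo33*, *Klhl10*, *Klhl12* and *Klhl42* were targets in each of the 9 fits that left out a library. The number of targets was 9 without CELF2-KI RIP 2, input 1 or input 2 and between 10 and 16 in the other 6. The test of a change beyond 2-fold with glmTreat left 1, *Klhl10*.

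**Figure D5:**
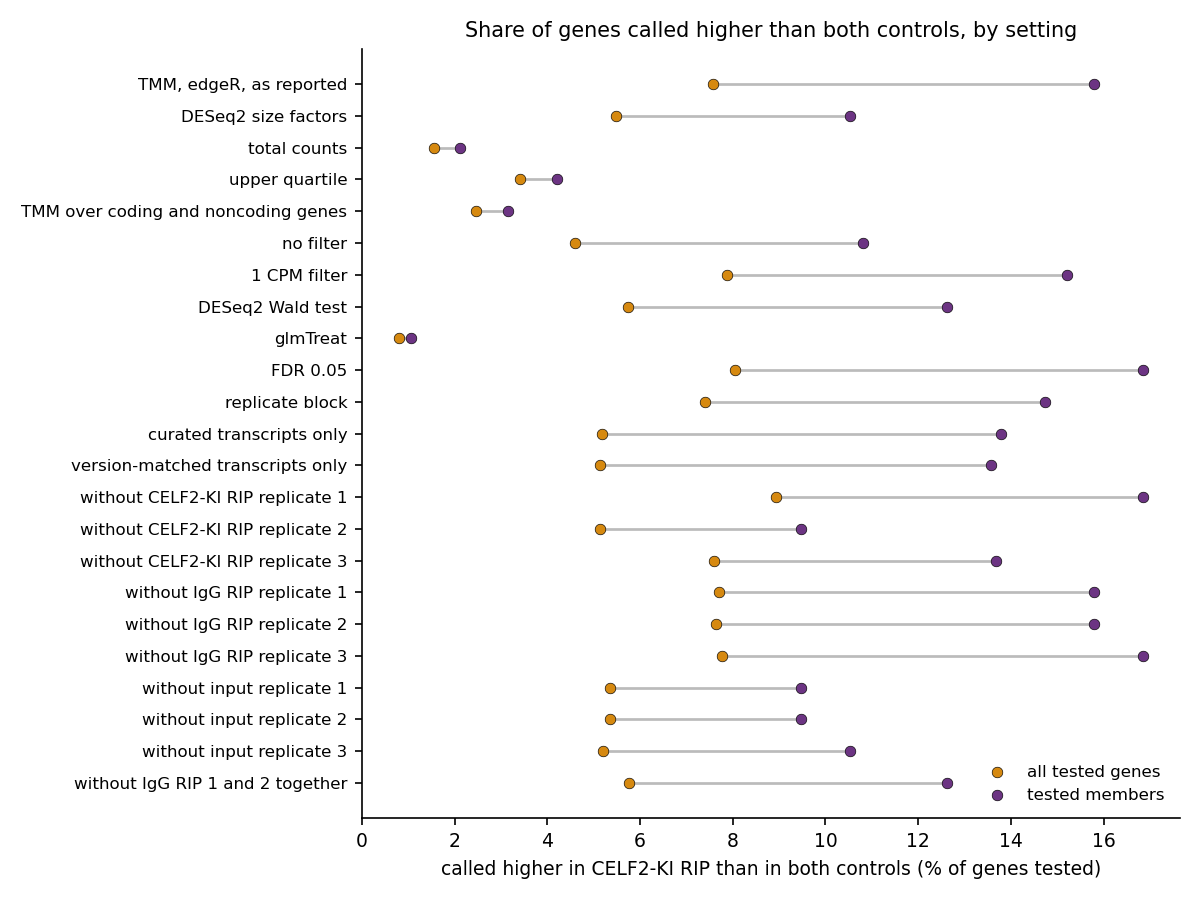
Share of tested members (purple) and of all tested genes (orange) called above both controls in the CELF2 pull-down, for the reported analysis and the 22 alternatives. The members' share lies right of the background in every row, from 1.05% against 0.793% with glmTreat to 16.8% against 8.04% at an FDR of 0.05, and with glmTreat, total counts, the upper quartile and TMM over coding and noncoding genes the shares lie within 1 percentage point of each other.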

How the data were processed

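RNA was sequenced from 9 libraries of neonatal cortex, 3 per group. The deposited table holds estimated counts per transcript, which the authors made with Kallisto 0.51.1 from rRNA-depleted, directional libraries after trimming with fastp 0.23.4 and removal of rRNA reads with Ribodetector 0.3.1. The methods name mm10 and an Ensembl transcriptome, but the 107384 rows carry RefSeq transcript identifiers. Whether counting used strand is not given in the sources used here, so reads of overlapping genes (22 members overlap another coding gene) may not be told apart. Estimates rather than whole reads also mean that a transcript's count can move between transcripts of a gene.

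For the present report, 86722 rows were matched to a gene through a RefSeq gene table (GRCm38.p6), and 346 rows of members were summed per gene and rounded. Coding genes that reached 0.5 CPM in no fewer than 3 libraries were fitted in edgeR 4.0.16 (R 4.3.3) with TMM factors, 1 group term and the quasi-likelihood test, over all 9 libraries, with Benjamini-Hochberg adjustment over 15267 genes. Calls needed an FDR under 0.01 and a 2-fold change. The common biological coefficient of variation was 0.221. Same-numbered libraries of CELF2-KI RIP and input deviated together from their group means in every pair (correlations of 0.133 to 0.182 over genes). Per the methods, input was an aliquot of the fraction whose remainder went to either antibody, but the sources used here do not say that equal numbers mark one preparation. Blocked values are therefore given where they change a call. Scripts were tested on simulated counts with known changes. SEs and p-values measure the spread between these libraries, which the study calls biological replicates. Replicates of a group differed by far more than counting noise, with a chi-square per gene of 12.2 at the least.

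The values of 1 member are not reported here by name, though it is in the counts. The members and lists were chosen with earlier results of these data known. Named were all members called against both controls, the 3 highest and 3 lowest per family over IgG RIP, the 2 most abundant per family in input, the 3 largest and smallest called changes of IgG RIP over input, members of the role lists, and, of other lists, called genes and at most 3 others. Alternatives were other scalings (DESeq2 1.42.0 size factors, total counts, upper quartile, TMM over coding and noncoding genes), other filters (none, 1 CPM), the DESeq2 Wald test, glmTreat, an FDR of 0.05, the replicate block, curated transcripts only, leaving out each library, leaving out IgG RIP 1 and IgG RIP 2 together, and, added after the data were seen, version-matched transcripts only.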

Additional observations from a re-analysis of the deposited data

How the results depend on the processing

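Each value was recomputed under 22 alternatives, 1 of them added after the data were seen. Over IgG RIP, higher members numbered 4 with total counts, 5 with the upper quartile, 6 with TMM over coding and noncoding genes and 2 with glmTreat (11 to 21 without single libraries), and lower members 12 with total counts and 0 with glmTreat (5 to 9). Over input, higher members numbered 8 with total counts, 9 with TMM over coding and noncoding genes, 4 with glmTreat and 16 with version-matched transcripts (20 to 32), and lower members 3 with glmTreat, 3 with curated and 3 with version-matched transcripts (4 to 6). For IgG RIP over input, higher members numbered 0 with glmTreat, 2 with curated transcripts, 3 with version-matched transcripts and 2 without IgG RIP 1 and IgG RIP 2 (4 to 13), and lower members 1 at an FDR of 0.05 (0 to 1). Targets numbered 2 with total counts, 4 with the upper quartile, 3 with TMM over coding and noncoding genes and 1 with glmTreat (9 to 16), and members below both controls 8 with total counts, 0 with glmTreat, 2 with curated and 2 with version-matched transcripts (4 to 6). Fewer genes are counted by construction under glmTreat and the transcript choices, and otherwise the cause was not tested. Family medians (log2) that moved by more than the spread between replicates are given for *Fbxo*, *Fbxl*, *Fbxw* and *Klhl* in this order where all are named. With total counts they were -0.19, -0.30, -0.25 and -0.11 over IgG RIP, 0.25, 0.45, -0.33 and 0.22 over input, and -0.038 (*Fbxw*) and 0.17 (*Klhl*) for IgG RIP over input. With the upper quartile they were -0.078, -0.20, -0.15 and -0.0045 over IgG RIP, 0.47 (*Fbxo*), 0.68 (*Fbxl*) and 0.45 (*Klhl*) over input, and 0.081 (*Fbxw*) for IgG RIP. With TMM over coding and noncoding genes they were -0.039 (*Fbxo*), -0.14 (*Fbxl*) and 0.040 (*Klhl*) over IgG RIP, 0.32, 0.52, -0.26 and 0.29 over input, and -0.20 (*Fbxo*), -0.12 (*Fbxw*) and 0.10 (*Klhl*) for IgG RIP. Without a filter they were 0.10, -0.025 and -0.24 (*Fbxo*, *Fbxl*, *Fbxw*) over IgG RIP, 0.59, 0.80, -0.20 and 0.57 over input, and 0.22 (*Klhl*) for IgG RIP. With DESeq2 size factors they were 7.6e-05 (*Fbxl*) and 0.19 (*Klhl*) over IgG RIP, 0.57 (*Fbxo*), 0.78 (*Fbxl*) and 0.55 (*Klhl*) over input, and -0.019 (*Fbxw*) and 0.19 (*Klhl*) for IgG RIP, and the DESeq2 Wald test gave 9.1e-05, 0.19, 0.57, 0.78, 0.55, -0.020 and 0.19. With curated transcripts they were -0.061 (*Fbxl*) over IgG RIP, 0.29 (*Fbxo*), 1.08 (*Fbxl*) and 0.53 (*Klhl*) over input, and 0.42 (*Fbxl*) and 0.11 (*Fbxw*) for IgG RIP. With version-matched transcripts they were -0.069 (*Fbxo*) and -0.054 (*Fbxl*) over IgG RIP, 0.54 (*Fbxo*), 0.75 (*Fbxl*) and 0.48 (*Klhl*) over input, and 0.12 (*Fbxw*) and 0.16 (*Klhl*) for IgG RIP. Without IgG RIP 1 and IgG RIP 2 they were 0.11 (*Fbxl*) and 0.52 (*Klhl*) over IgG RIP, 0.59 (*Fbxo*) and 0.58 (*Klhl*) over input, and 0.24 (*Fbxo*) and -0.0073 (*Fbxw*) for IgG RIP. Without single libraries the medians ranged, over IgG RIP, from 0.083 to 0.38 (*Fbxo*), -0.038 to 0.13 (*Fbxl*), -0.09 to 0.22 (*Fbxw*) and 0.16 to 0.32 (*Klhl*), over input from 0.51 to 0.72, 0.79 to 0.92, -0.0046 to 0.26 and 0.53 to 0.69, and for IgG RIP over input from -0.07 to 0.06, 0.17 to 0.27, -0.013 to 0.069 and 0.26 to 0.32. For IgG RIP against CELF2-KI RIP and against input, the correlations of same-numbered libraries were -0.094 to 0.060 and 0.056 to 0.104, not all over 0.1. With the replicate block, targets numbered 14 and members raised in IgG RIP 7, the calls of *Klhl24* (log2 fold change 0.99), *Klhl17* and *Fbxo16* and those of *Klhl31*, *Klhl34* and *Klhl41* in IgG RIP were lost, *Fbxo40* over input was gained (3.92, FDR 0.00573, edgeR), and no other call of a named member changed. Of the named members' values, 3173 kept their side of the threshold, 298 lost a call and 48 gained one. Values that were not called changed sign 19 times with total counts, 19 with curated transcripts, 16 with TMM over coding and noncoding genes, 14 without IgG RIP 1 and IgG RIP 2 and at most 11 times in any other setting, and no called value did. Depth limits the low members, as 9 of the 19 untested ones had no more than 3 counts in a library.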
